A study of Mus musculus with 6 samples.

Results

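The genes described here carry lactate, pyruvate and short-chain fatty acids (SCFAs) across the cell membrane or sense SCFAs and related hydroxy acids at the cell surface. They are 9 of the 56262 genes listed in the gene counts of fetal mouse leg muscle. The 9 were chosen by name, with earlier results of these data known. They comprise 4 transporters (*Slc16a1*, *Slc16a3*, *Slc16a7* and *Slc5a8*), 2 ancillary subunits (*Bsg* and *Emb*) and 3 receptors (*Ffar2*, *Ffar3* and *Hcar2*). Each was found once in the table by its Ensembl ID, and its symbol was taken from GENCODE release M21. Of the 9 genes, 8 had enough counts to be tested.

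RNA-seq was performed on leg muscle of fetuses at embryonic day 18.5 from 3 wild-type (WT) and 3 *SYISL* knockout (KO) samples. *SYISL*, a long noncoding RNA, lies over an intron of *Synpo2*. Fetuses of each group came from parents of their own genotype, so KO fetuses developed in KO mothers. The genotype of the fetus, that of the mother and the litter therefore cannot be told apart in these samples. The study asked how maternal *SYISL*, the gut microbiota and its metabolites, among them butyrate, bear on fetal muscle. Neither group is described as having received antibiotics, butyrate or transplanted microbiota. The sources name no separate animal or litter for each sample, so p-values measure only the spread between these samples. The annotation used gives *SYISL* no separate symbol, and its loss could not be checked from these counts.

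Proteins of the SLC16 family, the monocarboxylate transporters (MCTs), move lactate, pyruvate, ketone bodies and SCFAs such as acetate and butyrate together with a proton. They reach the cell membrane only when paired with a single-span glycoprotein, basigin (*Bsg*) for most members and embigin (*Emb*) for some. SCFAs are also sensed from outside the cell by G protein-coupled receptors, while *Hcar2* encodes a receptor for the ketone body beta-hydroxybutyrate, butyrate and niacin. In muscle, MCT4 (*Slc16a3*) is best known for the export of lactate from glycolytic fibres, and MCT1 (*Slc16a1*) for lactate exchange in oxidative cells.

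The samples held 82054811 to 102233181 counts each, and 3 counts, the limit that a count of 0 allows, equalled 0.0293 to 0.0366 CPM (counts scaled to a total of 1e6). This limit covers counting error only. CPM values use library sizes scaled by TMM. A gene was called a differentially expressed gene (DEG) when its edgeR adjusted p was below 0.05 and its fold change exceeded 1.5. By this rule 3687 of the 22071 genes tested were DEGs (16.7%), 1835 higher in KO (8.31%) and 1852 lower (8.39%). The adjusted p alone was passed by 9936 genes (45.0%), and the values of the 2 genotypes did not overlap for 12333 genes (55.9%). Markers of the labelled tissue were present. Of 10 muscle fibre markers, led by *Myh8*, 9 rose in KO, and their summed level was 18898 to 21177 CPM in WT against 40159 to 48635 CPM in KO.

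Of the 8 genes tested, 2 were DEGs higher in KO (*Slc16a3* and *Ffar2*) and 1 was a DEG lower in KO (*Hcar2*). That is 3 of 8, beside 16.7% of all genes tested. *Slc16a7* and *Emb* passed the adjusted p but not the fold change, which makes 5 of 8 beside 45.0%. The same 5 genes had values that did not overlap between genotypes, beside 55.9% of all genes. *Slc16a1*, *Slc5a8* and *Bsg* passed neither threshold. The median log2 fold change of the 8 genes was 0.24, and that of all genes was -0.0041. Counts near zero were found for *Ffar2*, *Ffar3* and *Slc5a8*. *Ffar3* had no count in any sample, *Ffar2* had 6 to 102 counts and *Slc5a8* had 24 to 79.

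**Figure D1:**
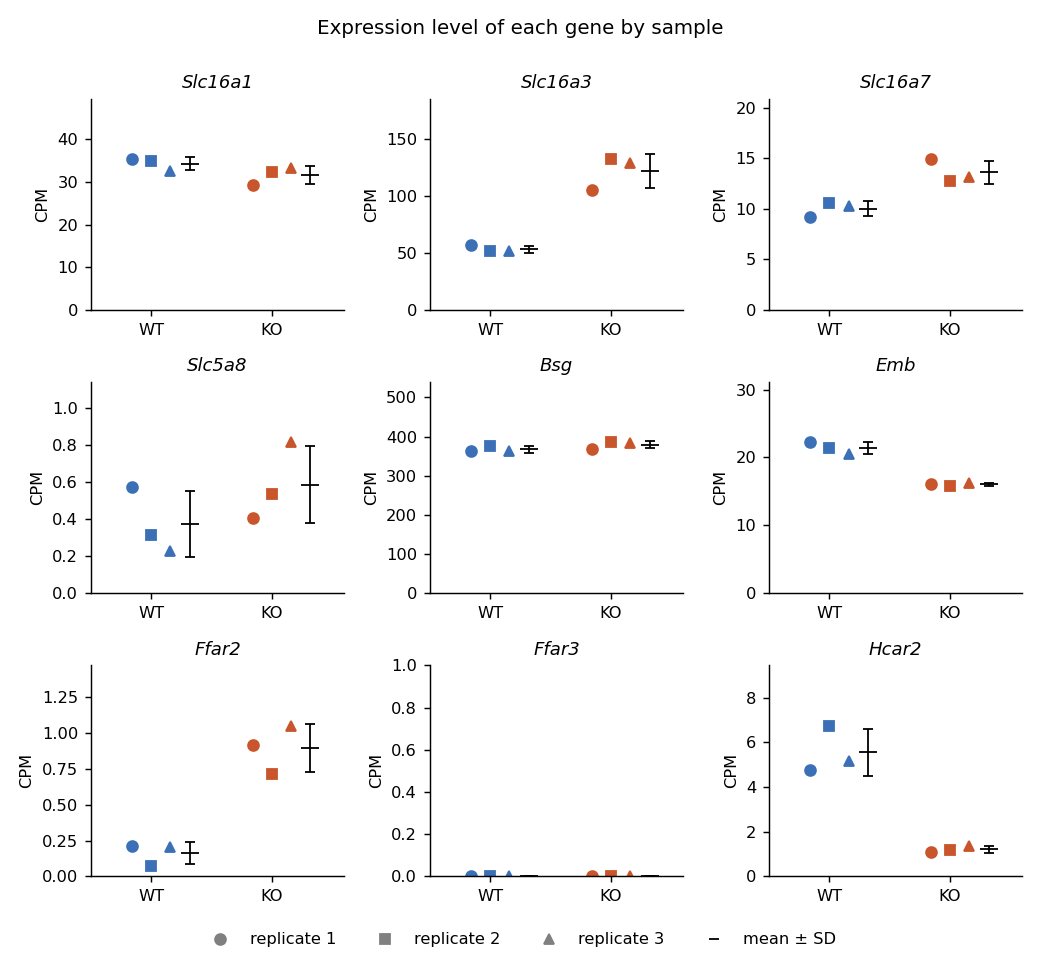
Level of each of the 9 genes in CPM (vertical axes, each starting at 0) in the 3 WT samples (blue) and 3 KO samples (orange), with symbols for the replicate number and the mean ± SD in black. *Slc16a3*, *Slc16a7* and *Ffar2* are higher in every KO sample, *Emb* and *Hcar2* lower in every KO sample, the values of *Slc16a1*, *Slc5a8* and *Bsg* overlap, and *Ffar3* is at 0.

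To compare genes with each other, counts were also divided by exon length (RPKM, CPM per kb of exon). In WT the order of mean levels on this scale was *Bsg* (202 ± 4.66 RPKM), *Slc16a3* (10.01 ± 0.572), *Slc16a1* (7.73 ± 0.338), *Emb* (3.09 ± 0.122), *Hcar2* (2.88 ± 0.541), *Slc16a7* (0.845 ± 0.0624), *Slc5a8* (0.0696 ± 0.0334), *Ffar2* (0.0588 ± 0.0284) and *Ffar3* (0), each with SD and n = 3. Within this order *Emb* and *Hcar2* did not differ beyond their spread, nor did *Slc5a8* and *Ffar2*. In KO *Slc16a7* (1.15 ± 0.0982 RPKM) stood above *Hcar2* (0.629 ± 0.0787), and *Ffar2* (0.32 ± 0.0605) above *Slc5a8* (0.11 ± 0.039). *Bsg* was among the most abundant genes of the tissue, with 99.1% of the genes tested below it in mean RPKM over the 6 samples. The figure for *Slc16a3* was 86.6%, for *Slc16a1* 72.3% and for *Ffar2* 14.6%.

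*Slc16a3* (ENSMUSG00000025161.16, mm10 chr11:120948480-120960868, plus strand) encodes MCT4, a low-affinity lactate exporter. Its counts were 5370, 4261 and 5421 in WT replicates 1 to 3 and 9858, 12597 and 12585 in KO replicates 1 to 3. Scaled to depth, the level was 53.2 ± 3.04 CPM in WT against 122 ± 14.8 CPM in KO (SD, n = 3). The lowest KO sample, replicate 1 at 105 CPM, was above the highest WT sample at 56.7 CPM. *Slc16a3* rose 2.3-fold in KO, with a log2 fold change of 1.20 (standard error 0.0832, 95% interval 1.01 to 1.39, edgeR adjusted p = 3.32e-06). The muscle fibre markers rose in the same samples, with a median log2 fold change of 1.17. Their summed level ordered the KO samples as *Slc16a3* did. In WT, replicate 1 was highest for both. WT replicates 2 and 3 were nearly equal for *Slc16a3*, at 51.6 and 51.4 CPM, and replicate 2 was lowest for the sum. The part of these markers in the result was not tested. In bulk tissue, more cells of a type and more RNA per cell cannot be told apart.

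*Slc16a1* (ENSMUSG00000032902.1, mm10 chr3:104638668-104658462, plus strand) encodes MCT1, the most widely expressed transporter of the family. WT samples held 3340, 2881 and 3431 counts of it and KO samples 2740, 3084 and 3236. It stood at 34.2 ± 1.5 CPM in WT against 31.6 ± 2.12 CPM in KO, and the groups overlapped. The log2 fold change was -0.11 (standard error 0.0578, edgeR adjusted p = 0.143), and its 95% interval of -0.24 to 0.02 lay within the 1.5-fold limits on both sides. A pair of short genes annotated inside its introns, *Gm43581* and *Gm43585*, had at most 8 counts in any sample and shared no exon base with it.

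The pair of transporters was therefore compared within each sample, where scaling between samples plays no part, by their counts not divided by length. There were 1.61, 1.48 and 1.58 counts of *Slc16a3* for each count of *Slc16a1* in WT, and 3.6, 4.08 and 3.89 in KO. The mean log2 ratio was 0.64 ± 0.0635 in WT against 1.95 ± 0.0923 in KO. The difference of 1.31, a 2.48-fold higher ratio, had an exact two-sided permutation p of 0.1, the smallest that 3 against 3 samples allow. Every KO sample had more than 2 times the ratio of any WT sample. A ratio within a sample still depends on its mix of cell types. Summed muscle fibre markers were at 18898 to 21177 CPM in WT against 40159 to 48635 CPM in KO. Summed keratinocyte markers were at 16098 to 24001 CPM in WT against 733 to 846 CPM in KO. The part of such markers in this ratio, and in the ratios and shares given below, was not tested.

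The promoters of this pair are shown because one transporter rose and the other did not, and because *Slc16a3* is known as a target of hypoxia-inducible factors. The sequences run from 250 bases before to 50 bases from the start of transcription on, and come from RefSeq on GRCm38.p6, the assembly of mm10. They lie at chr3:104638414-104638713 for *Slc16a1* and chr11:120948817-120949116 for *Slc16a3*, both on the plus strand. Capitals mark the core of the hypoxia response element, ACGTG or GCGTG, on either strand (CACGT or CACGC where the match is on the other strand).

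*Slc16a1*: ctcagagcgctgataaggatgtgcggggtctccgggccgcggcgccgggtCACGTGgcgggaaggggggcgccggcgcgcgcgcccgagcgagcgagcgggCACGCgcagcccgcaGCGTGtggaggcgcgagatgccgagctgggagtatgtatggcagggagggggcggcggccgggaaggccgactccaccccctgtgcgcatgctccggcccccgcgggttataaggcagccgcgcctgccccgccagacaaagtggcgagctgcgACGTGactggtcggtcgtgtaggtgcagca
*Slc16a3*: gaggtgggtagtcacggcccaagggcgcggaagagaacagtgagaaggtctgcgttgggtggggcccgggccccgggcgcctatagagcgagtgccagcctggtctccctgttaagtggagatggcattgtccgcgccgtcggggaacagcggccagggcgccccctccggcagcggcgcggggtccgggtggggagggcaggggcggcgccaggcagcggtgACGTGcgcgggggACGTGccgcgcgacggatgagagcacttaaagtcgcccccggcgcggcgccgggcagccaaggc

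The *Slc16a1* window held 5 matches, of which 2 overlapped as a CACGTG, which reads the same on both strands. The *Slc16a3* window held 2, at positions -27 and -14 from the start. At least 1 match stood in 43.8% of 32851 mouse promoter windows of this length, at least 3 in 8.93%, at least 5 in 1.66%, and CACGTG in 7.15%. Both genes thus carried the letters. Whether such matches bear on the level of either gene was not tested. A match is a description of these letters and not a binding site. Windows were found for 6 of the 9 genes, and none was found for *Slc16a7*, *Bsg* and *Hcar2*.

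*Slc16a7* (ENSMUSG00000020102.15, mm10 chr10:125219270-125389465, minus strand) encodes MCT2, a high-affinity transporter for pyruvate and lactate. Counts of 868, 874 and 1083 in WT compared with 1399, 1218 and 1272 in KO. The level was 10.002 ± 0.738 CPM in WT against 13.6 ± 1.16 CPM in KO, with every KO sample above every WT sample. The 1.36-fold difference (log2 fold change 0.44, standard error 0.0817, 95% interval 0.26 to 0.63, edgeR adjusted p = 0.00183) passed the adjusted p but not the fold change of a DEG. An unconfirmed gene model on the opposite strand, *Gm47862*, shared 179 exon bases with it and had at most 1 count in a sample.

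*Slc5a8* (ENSMUSG00000020062.7, mm10 chr10:88885992-88929515, plus strand) encodes a sodium-coupled transporter of SCFAs and lactate, known from the epithelium of colon and kidney. It had 54, 26 and 24 counts in WT against 38, 51 and 79 in KO. The groups overlapped, since WT replicate 1 was above KO replicates 1 and 2 in CPM. The level was 0.371 ± 0.178 CPM in WT against 0.584 ± 0.208 CPM in KO, and the log2 fold change of 0.66 had a standard error of 0.355 and a 95% interval of -0.14 to 1.46 (edgeR adjusted p = 0.161). Without WT replicate 1, the log2 fold change was 1.13 and the edgeR adjusted p 0.0283, which met the rule for a DEG. Leaving out any other sample left *Slc5a8* uncalled. The lowest log2 fold change was 0.35 without KO replicate 3 (edgeR adjusted p = 0.509). At these counts neither no change nor a change above 2-fold lay outside the interval.

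Per length, the transporters summed to 19.5, 18.5 and 17.9 RPKM in the WT samples against 27.7, 33.3 and 33.1 RPKM in the KO samples. *Slc16a3* made up 53.6 ± 1.18% of this sum in WT against 73.1 ± 1.63% in KO (SD, n = 3). The share of *Slc16a1* was 41.5 ± 0.927% in WT against 22.8 ± 0.956% in KO, while its own level on this scale was 7.73 ± 0.338 and 7.14 ± 0.478 RPKM. The shares of a sum depend on each other, and no test was made on them. *Slc16a7* contributed 4.54 ± 0.498% in WT against 3.71 ± 0.73% in KO, and *Slc5a8* under 1% in every sample.

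**Figure D2:**
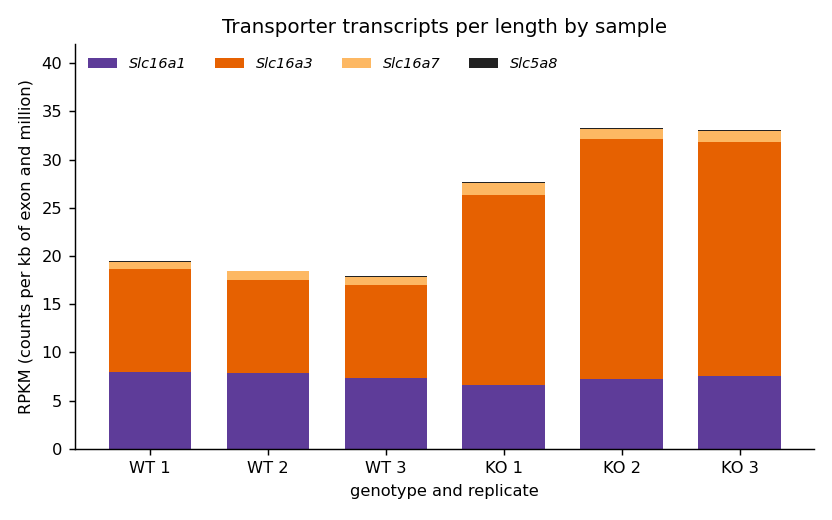
Summed level of the 4 transporters in RPKM (vertical axis, from 0) in each of the 6 samples, with 1 colour for each gene. The bars of WT end at 17.9 to 19.5 RPKM and those of KO at 27.7 to 33.3 RPKM, the *Slc16a1* part is of like height in all samples and the *Slc16a3* part is taller in KO.

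*Bsg* (ENSMUSG00000023175.15, mm10 chr10:79704491-79711969, plus strand) encodes basigin (CD147), the partner of MCT1 and MCT4. It had 34357, 31151 and 38187 counts in WT against 34544, 36710 and 37309 in KO. The level was 367 ± 8.46 CPM in WT against 379 ± 9.17 CPM in KO, and the groups overlapped. The log2 fold change was 0.05 (standard error 0.0445, 95% interval -0.05 to 0.15, edgeR adjusted p = 0.441), and its sign turned when libraries were scaled by total counts alone, to -0.02. The counts of *Bsg* were 3.94, 4.36 and 4.31 times the summed counts of *Slc16a1* and *Slc16a3* in WT against 2.74, 2.34 and 2.36 times in KO. The log2 ratio was 2.07 ± 0.0795 in WT against 1.31 ± 0.129 in KO, a difference of -0.76 (exact two-sided permutation p = 0.1, the smallest possible). These ratios are of counts not divided by exon length. Per length, *Bsg* was at 202 ± 4.66 RPKM in WT against 209 ± 5.05 RPKM in KO, above the summed transporters in each genotype.

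*Emb* (ENSMUSG00000021728.8, mm10 chr13:117208536-117274415, plus strand) encodes embigin, the preferred partner of MCT2. Its counts were 2100, 1769 and 2164 in WT against 1513, 1508 and 1575 in KO. With 21.4 ± 0.842 CPM in WT against 16.1 ± 0.2 CPM in KO, every KO sample was below every WT sample. The level was 1.33-fold lower in KO (log2 fold change -0.41, standard error 0.0525, 95% interval -0.53 to -0.29, edgeR adjusted p = 0.000186), which passed the adjusted p but not the fold change. *Emb* and *Slc16a7*, its partner, thus differed in opposite directions. The log2 ratio of *Emb* to *Bsg* counts was -4.1 ± 0.0622 in WT against -4.56 ± 0.0464 in KO, a difference of -0.46 (exact two-sided permutation p = 0.1, the smallest possible). A gene on the opposite strand, *Gm17509*, shared 686 exon bases with *Emb* and had at most 3 counts. The strand setting of the counting is not given in the sources used here, so reads of both cannot be told apart.

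**Figure D3:**
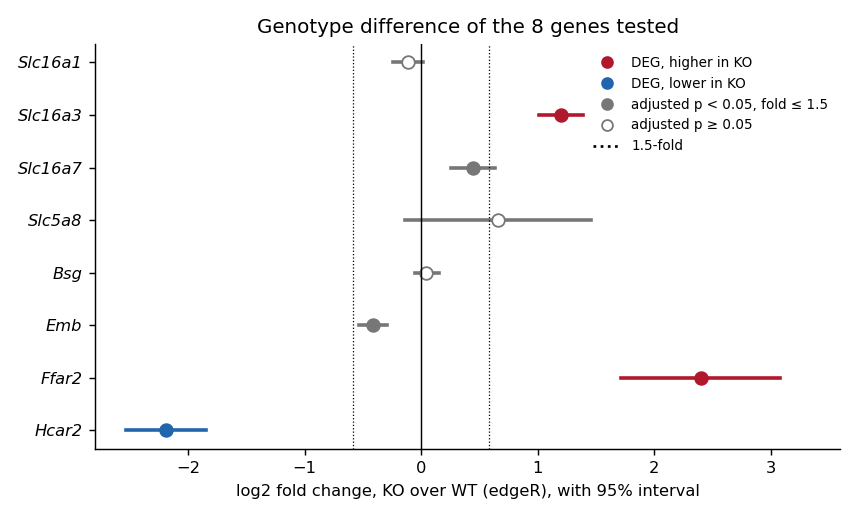
Log2 fold change of KO over WT (horizontal axis) from edgeR for the 8 genes tested, with 95% intervals as bars. Filled red and blue points are DEGs, filled grey points passed the adjusted p alone and open points did not, and dotted lines mark 1.5-fold. *Ffar2* at 2.40 and *Hcar2* at -2.19 lie farthest from 0, on opposite sides, and *Slc5a8* has the widest interval.

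The receptors did not move together. *Ffar2* (ENSMUSG00000051314.11, mm10 chr7:30818348-30823775, minus strand) encodes a receptor for acetate, propionate and butyrate, known from adipocytes, immune cells and gut endocrine cells. It had 20, 6 and 22 counts in WT against 86, 68 and 102 in KO, or 0.211, 0.0726 and 0.208 CPM against 0.918, 0.714 and 1.05 CPM. The lowest KO sample was above the highest WT sample. *Ffar2* rose 5.27-fold, with a log2 fold change of 2.40 (standard error 0.302, 95% interval 1.72 to 3.08, edgeR adjusted p = 0.000175). The gene did not enter the test when at least 10 counts in every sample were required, because WT replicate 2 had 6. Its level remained low in KO, at 0.893 ± 0.169 CPM.

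Markers of the cell types in which *Ffar2* is known were read in the same samples. Of 10 adipocyte markers, led by *Car3*, 9 rose and none fell, with a median log2 fold change of 2.43 and a summed level of 573 to 697 CPM in WT against 1602 to 1868 CPM in KO. Most of this sum was *Car3*, which skeletal muscle also expresses, at 480 CPM in WT against 1290 CPM in KO. Without *Car3*, left out after its values were seen, 8 of the remaining 9 rose and the median was 2.44. The sum was then 146 to 178 CPM in WT against 436 to 511 CPM in KO. It was led by *Fabp4*, at 109 CPM in WT against 247 CPM in KO, whose log2 fold change of 1.18 was below the median. The sample order matched in part, since WT replicate 2 was lowest both for *Ffar2* and for the sum, but KO replicate 2 was lowest for *Ffar2* and highest for the sum. Of 10 macrophage markers, led by *Mrc1*, 8 rose and none fell, from summed levels of 316 to 332 CPM to 537 to 593 CPM. Of 9 neutrophil markers tested, 3 rose, none fell and 6 were not called, and their summed level, led by *S100a9*, overlapped between genotypes at 7.95 to 27.0 CPM in WT against 12.2 to 16.7 CPM in KO. No marker of these lists was at 0 in every sample, and their part in the *Ffar2* result was not tested.

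*Ffar3* (ENSMUSG00000019429.7, mm10 chr7:30854330-30856178, minus strand), a receptor for propionate and butyrate known from sympathetic neurons, had 0 counts in all 6 samples. A count of 0 leaves a level of up to 0.0293 to 0.0366 CPM possible in a sample. It was not tested.

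*Hcar2* (ENSMUSG00000045502.6, mm10 chr5:123863570-123865499, minus strand) encodes a receptor known from adipocytes, macrophages and epidermal cells, where it binds beta-hydroxybutyrate, butyrate and niacin. Its counts were 452, 557 and 543 in WT against 101, 113 and 134 in KO. The level was 5.55 ± 1.04 CPM in WT against 1.21 ± 0.152 CPM in KO, and the highest KO sample at 1.38 CPM was below the lowest WT sample at 4.77 CPM. *Hcar2* fell in KO and was 4.56-fold lower, with a log2 fold change of -2.19 (standard error 0.151, 95% interval -2.53 to -1.85, edgeR adjusted p = 3.24e-06).

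Keratinocyte markers were lower in the same samples. All 10, led by *Krt1*, fell in KO, with a median log2 fold change of -3.58, and their summed level was 16098 to 24001 CPM in WT against 733 to 846 CPM in KO. WT replicate 2 was highest both in this sum and in *Hcar2*, at 6.74 CPM, whereas in KO replicate 2 was highest in the sum and replicate 3 in *Hcar2*. Of 10 red blood cell markers, led by *Hbb-bs*, 9 fell, from summed levels of 3950 to 5194 CPM to 549 to 670 CPM. The adipocyte and macrophage markers rose, as given above for *Ffar2*. Their part in the *Hcar2* result was not tested. None of 10 endothelial markers, led by *Cdh5*, and none of 10 fibroblast markers, led by *Col1a1*, was a DEG, and of 10 Schwann cell markers, led by *Pmp22*, 1 rose and 1 fell.

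**Figure D4:**
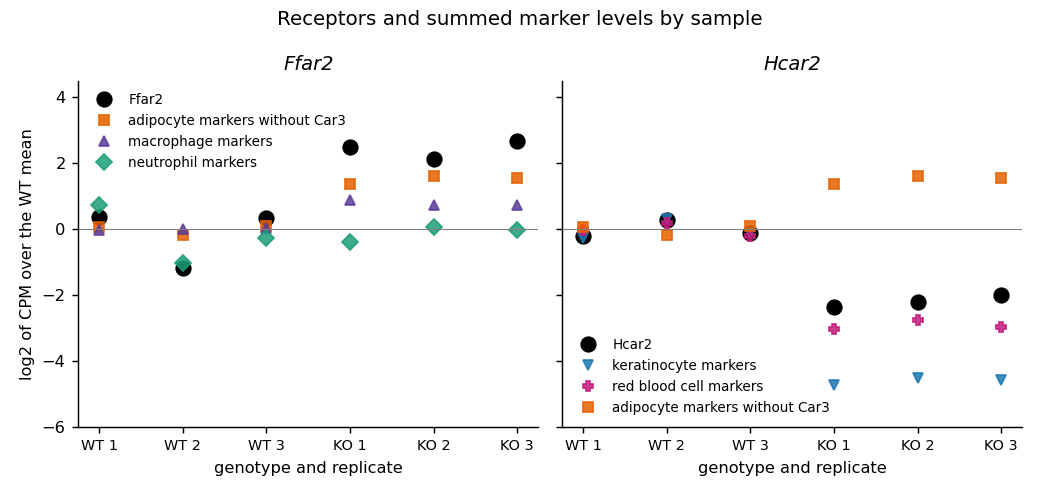
Log2 of the CPM value over the mean of the WT samples (vertical axis) in each of the 6 samples, for *Ffar2* (left) and *Hcar2* (right) as black circles, beside the summed CPM of marker lists as coloured symbols, the adipocyte list without *Car3*. *Ffar2* and the adipocyte and macrophage sums lie above the WT mean in all KO samples, and *Hcar2*, the keratinocyte sum and the red blood cell sum lie below it.

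Other receptors for fatty acids and hydroxy acids were examined as a list of 6 genes. This list, like the others, was chosen with earlier results of these data known. Of the 4 tested, 3 rose and none fell, beside 8.31% of all genes higher and 8.39% lower, and the median log2 fold change was 0.99. The adipocyte and macrophage markers given above rose in the same samples, and their part was not tested. *Hcar1*, the lactate receptor and the neighbour of *Hcar2* on the same strand, had 107, 81 and 156 counts in WT against 222, 221 and 249 in KO. It rose by 1.005 on the log2 scale (standard error 0.148, edgeR adjusted p = 0.000472), opposite in direction to *Hcar2*. *Ffar4*, a receptor for long-chain fatty acids, went from 0.201 ± 0.00986 to 0.496 ± 0.0441 CPM (log2 fold change 1.29, edgeR adjusted p = 0.000444). *Olfr78*, an olfactory receptor that responds to acetate and propionate, went from 2.09 ± 0.501 to 4.09 ± 0.564 CPM (log2 fold change 0.97, edgeR adjusted p = 0.00119). *Olfr558* had the highest level, with 5.89 ± 0.47 CPM in WT against 7.09 ± 0.399 CPM in KO, and was not a DEG (log2 fold change 0.27). *Ffar1*, which lies next to *Ffar3*, had 0 to 2 counts and *Gpr84* 7 to 15, and neither was tested.

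Of 12 other transporters of the SLC16 family and the sodium-coupled group, 11 were tested. Of these, 1 rose and 2 fell, beside 8.31% of all genes higher and 8.39% lower. The median log2 fold change was 0.03, and its sign turned with library size alone and without WT replicate 1 or KO replicate 1. *Slc16a12*, a creatine transporter, rose from 5.08 ± 0.346 to 7.76 ± 0.287 CPM (log2 fold change 0.61, edgeR adjusted p = 0.000132). *Slc16a13* fell from 7.07 ± 0.394 to 4.03 ± 0.156 CPM (log2 fold change -0.81, edgeR adjusted p = 2.05e-05). *Slc16a5* fell from 0.542 ± 0.0812 to 0.336 ± 0.0437 CPM (log2 fold change -0.70, edgeR adjusted p = 0.0156). In the same samples muscle fibre markers rose, and keratinocyte and red blood cell markers fell. Their part in these calls was not tested. *Slc5a12*, the sodium-coupled relative of *Slc5a8*, had 0 to 7 counts and was not tested.

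The enzymes and carriers that handle the transported acids inside the cell were examined next. Of 6 genes for lactate dehydrogenases and the mitochondrial pyruvate carrier, 5 were tested, 3 rose and none fell, with a median log2 fold change of 0.66, beside 8.31% of all genes higher. The muscle fibre markers rose in the same samples, by a median of 1.17, and their part in these lists of enzymes and carriers was not tested. Both subunits of the carrier rose, *Mpc1* from 13.8 ± 0.549 to 22.7 ± 1.35 CPM (log2 fold change 0.71, edgeR adjusted p = 1.49e-05) and *Mpc2* from 23.6 ± 0.887 to 37.3 ± 5.73 CPM (0.66, edgeR adjusted p = 0.00048). *Ldhd*, which oxidizes D-lactate, rose from 0.622 ± 0.112 to 1.49 ± 0.329 CPM (log2 fold change 1.25, edgeR adjusted p = 0.000839). *Ldha*, the muscle form of lactate dehydrogenase, was the highest in CPM, at 983 ± 5.26 in WT against 1270 ± 125 in KO, and passed the adjusted p but not the fold change (log2 fold change 0.37, edgeR adjusted p = 0.00272).

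Of 12 genes for the activation and oxidation of SCFAs, 10 were tested, 2 rose and none fell, with a median log2 fold change of 0.3. The share of all genes was 8.31% higher. By the adjusted p alone 8 of 10 were higher in KO and none lower, beside 45.0% of all genes in either direction. By the same measure 8 of 10 endothelial markers and 7 of 10 fibroblast markers were higher in KO and none lower. The median log2 fold changes of those marker lists were 0.19 and 0.21. *Acss2*, the cytosolic and nuclear enzyme that makes acetyl-CoA from acetate, had 2450, 2104 and 2793 counts in WT against 4664, 5511 and 5534 in KO. *Acss1*, its mitochondrial counterpart, had 913, 718 and 988 counts in WT against 1311, 1431 and 1447 in KO. The log2 fold change was 1.08 for *Acss2* (edgeR adjusted p = 7e-07) and 0.66 for *Acss1* (edgeR adjusted p = 3.09e-05). In both genes every KO sample was above every WT sample, beside 55.9% of all genes without overlap in either direction. *Hadh* had the highest level, at 86.5 ± 2.29 CPM in WT against 104 ± 4.84 CPM in KO, and was not a DEG (log2 fold change 0.27). *Acsm1*, a medium-chain acyl-CoA synthetase, had no count in any sample.

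Of 5 genes of ketone body synthesis and use, none rose and 1 fell, beside 8.31% of all genes higher and 8.39% lower. *Bdh1*, the mitochondrial enzyme that interconverts acetoacetate and beta-hydroxybutyrate, had 1249, 1373 and 1604 counts in WT against 424, 408 and 396 in KO. It fell from 15.0 ± 1.72 to 4.29 ± 0.227 CPM (log2 fold change -1.80, standard error 0.093, edgeR adjusted p = 5.1e-07). The other 4 genes were not DEGs. Keratinocyte and red blood cell markers fell in the same samples, by medians of -3.58 and -2.8, and their part in the *Bdh1* result was not tested. *Acat1* had the highest level, with 216 ± 5.9 CPM in WT against 246 ± 5.45 CPM in KO, and was not a DEG (log2 fold change 0.18).

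**Figure D5:**
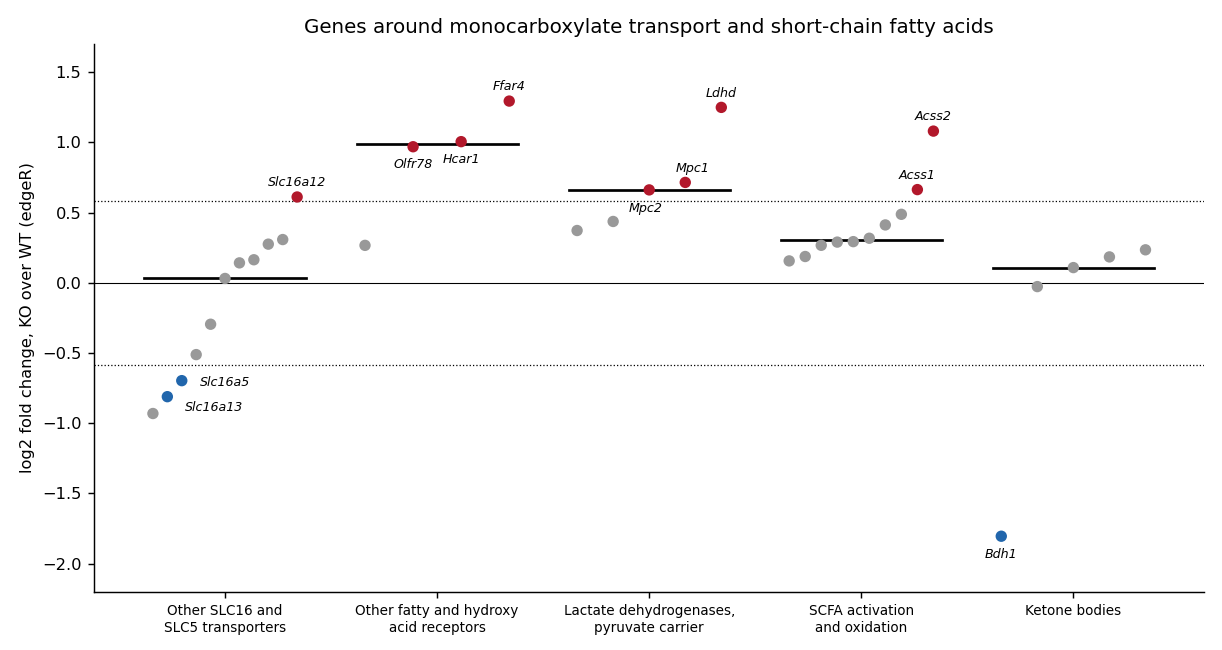
Log2 fold change of KO over WT (vertical axis) from edgeR for each tested gene of 5 lists, with DEGs higher in KO in red, DEGs lower in KO in blue and others in grey. Black bars are list medians and dotted lines mark 1.5-fold. The receptor, lactate and SCFA lists lie above 0 throughout, the transporter list spans 0, and *Bdh1* at -1.80 is the lowest point.

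The genes whose log2 CPM followed each of the 8 tested genes most closely over the 6 samples were sought among 12370 genes with a mean of at least 5 CPM. For *Slc16a3* these were *Anxa3*, *Abra* and *Yipf7*, and for *Hcar2* *Commd9*, *Mpv17l* and *Gng4*, all with a Pearson r of at least 0.999. The numbers of genes with r above 0.99 were 467 and 534 for this pair, 80 for *Emb* (led by *Nucks1*, *Tnnt2* and *Set*), 29 for *Slc16a7* (*Aplp2*, *Dcn* and *Ap2a2*) and 22 for *Ffar2* (*Itgav*, *Zkscan5* and *Cers2*). *Slc16a1* and *Bsg* had 1 such gene each, *Dynlt3* at 0.993 and *Egr2* at 0.991, followed by *Cab39* and *Cipc* for *Slc16a1* and by *Wdtc1* and *Tob1* for *Bsg*. *Slc5a8* had none, with *Yipf6* at 0.983 closest, then *Taf7* and *Arglu1*. All points share the genotype contrast and the libraries, so a high r over 6 samples is common for any gene that differs between genotypes.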

How the data were processed

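Leg muscle of mouse fetuses at embryonic day 18.5 was profiled by RNA-seq in 3 WT and 3 *SYISL* KO samples. Per the labels, reads were trimmed with Trim Galore 0.6.6, mapped to mm10 with HISAT2 2.2.1 and counted with featureCounts 2.0.1. The authors deposited raw counts per gene, without normalization or a filter. The annotation and the strand setting are not given in the sources used here. Of 56262 genes listed, GENCODE release M21 gave symbols and positions for 55227; the other 1035 stayed in the tests under their IDs.

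Counts were tested in R 4.3.3 with edgeR 4.0.16 (filterByExpr, TMM, quasi-likelihood F-test on genotype), with Benjamini-Hochberg adjustment over 22071 genes. CPM use TMM-scaled library sizes, and RPKM divides CPM by exon length in kb. Ratios within samples were tested by exact permutation over 20 splits. No source ties a replicate number to a litter, and same-numbered WT and KO samples deviated from their group means with correlations of -0.2, -0.134 and 0.0472, so samples were not paired. Samples of a genotype differed by more than counting noise (mean chi-square per gene 5.22 to 36.2). On simulated data for KO against WT with 22071 genes and 200 changed 2-fold, edgeR called 199 of these and 2 others. The changed genes were drawn only from levels above those of *Ffar2* and *Slc5a8* (means of 0.529 and 0.478 CPM). The simulation therefore does not cover genes at such low levels.

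Alternatives were other scalings, filters and thresholds, DESeq2 1.42.0, limma-voom (limma 3.58.1), a replicate block and leaving out each sample. The adipocyte list without *Car3* was added after seeing the data. The genes and the 5 pathway and 9 marker lists were chosen with earlier results of these data known. Named from each list are its DEGs and the gene of highest mean CPM, and from marker lists the latter. For 1 gene of these lists no value is reported here. Also named are the 3 genes most alike to each tested gene.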

Additional observations from a re-analysis of the deposited data

How the results depend on the processing

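*Slc16a3*, *Ffar2* and *Hcar2* kept their direction and their call under every scaling, tool and left-out sample in which they were tested, with log2 fold changes of 1.13 to 1.30, 2.08 to 2.61 and -2.29 to -2.03. Requiring at least 10 counts in every sample removed *Ffar2*, so that 1 of the genes was called higher. Without a fold-change threshold 2 were called lower, *Emb* being added, and 9936 genes were called in all; with a fold change over 2 there were 2043. Leaving out each sample gave 2 to 3 of the genes described called higher, *Slc5a8* being added without WT replicate 1, 1 called lower and 3351 to 3877 genes called in all. The log2 ratio differences then ranged from 1.27 to 1.36 for *Slc16a3* to *Slc16a1*, from -0.84 to -0.72 for *Bsg* to both transporters and from -0.48 to -0.42 for *Emb* to *Bsg*.

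*Bsg* turned to -0.0227 with library size only. The median of the other SLC16 transporters turned to -0.0353 with library size only, to -0.0739 without WT replicate 1 and to -0.0128 without KO replicate 1, with 0.1324 the highest value on leaving out a sample. Of the genes in the pathway lists, 3 were called lower, and 5 without KO replicate 1. Of all genes, 2188 were called higher and 1673 lower with upper-quartile factors, and 1528 and 2088 with library size only, beside 1835 and 1852. *Slc16a1* had an edgeR adjusted p of 0.0162 with library size only, at a log2 fold change of -0.18. With the replicate block, 1744 genes were called higher and 1777 lower, and no call of the genes described changed; the numbers are not known to pair the samples. Counts of 6 to 102 limit the precision for *Ffar2* and *Slc5a8*.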
